A study of Homo sapiens with 60 samples.

Results

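The 10 genes of heme breakdown and iron handling followed here in metal-treated human cells were chosen by name from the count table: HMOX1, HMOX2, BLVRA, BLVRB, SLC48A1, FTL, FTH1, TFRC, SLC40A1, and NCOA4. Earlier results of these data were known at the choice, so counts of members called beside shares of all genes are descriptions. All 10 were found among 62703 annotated genes, of which 28620 had at least 1 read and 12341 passed the filter on low counts. Of the 10 members, 9 passed that filter, each with at least 40 reads in every library, and SLC40A1 had no read in any of the 60 libraries. The cells were 1321N1, an established human line derived from an astrocytoma and used as an astrocyte model. They were kept non-treated or were given 2.55 µM sodium metaarsenite (arsenic), 2.3 µM cadmium chloride (cadmium), or 20 µM mercury chloride (mercury), and were lysed after 1.5, 3, 6, 12, or 24 h. The concentrations had been chosen by the study for equal and limited killing after a longer exposure than any sampled here. The metals are thus compared at doses matched for that later killing, which may differ at the sampled times, and not at matched molarity. Each of the 20 groups held 3 libraries of 3′ mRNA sequencing, in which reads start near the poly(A) end of a transcript, so that a read count is not divided by gene length.

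Heme is opened by heme oxygenases, which release iron, carbon monoxide, and biliverdin, and biliverdin reductases turn biliverdin into bilirubin. The released iron is held in the cytosol by ferritin, a shell of heavy and light chains, while the transferrin receptor brings iron into the cell, ferroportin carries it out, and NCOA4 delivers ferritin to the lysosome for iron release. HMOX1 is a widely used marker of oxidative and electrophilic stress, and astrocytes are known for inducing it when injured.

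The libraries held between 2215276 and 4404609 counted reads, and the replicates of a group correlated with a Pearson's r of 0.958 to 0.977 over the genes tested. The series description calls the triplicates technical, so the p-values measure only the spread between libraries. Of 10 astrocyte and glioma markers, 4 passed the filter: VIM, CD44, SOX9, and NES had median levels of 4488, 394, 78.2, and 3.41 CPM, the count scaled to a common library size, whereas GFAP had 6 reads in all, S100B 1, and AQP4 and ALDH1L1 none. The summed level of the list had a range of 3911 to 5775 CPM in non-treated libraries and 3365 to 6336 CPM in metal-treated libraries. The erythroid genes HBB and ALAS2 had no read in any library. The libraries are bulk samples, in which fewer cells of a kind and less RNA per cell cannot be told apart.

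Against non-treated cells of the same time, the members that changed nearly all went up, and heme oxygenase 1, the ferritin chains, the heme transporter SLC48A1, and biliverdin reductase B carried the change. A member was called changed at an adjusted p under 0.05 from edgeR's quasi-likelihood test, with Benjamini-Hochberg adjustment over the 12341 genes, and a log2 fold change (LFC) is metal minus non-treated. With arsenic, 0, 1, 2, 4, and 5 of the 9 tested members were called from the earliest to the latest of the 5 time points, all of them higher, where 0.0729%, 0.138%, 0.916%, 4.11%, and 14.3% of all genes were called. With cadmium, 0, 1, 2, 3, and 4 members were called, all higher, beside 0.00%, 0.203%, 2.05%, 8.18%, and 2.19% of all genes. With mercury, 1, 2, 3, 5, and 6 members were called, beside 0.567%, 1.55%, 7.48%, 16.0%, and 27.8% of all genes, and the only member called lower was HMOX2, at 12 and 24 h. At 1.5 h edgeR called no member with arsenic or cadmium. There 3 and 0 members had an unadjusted p under 0.05, beside 1219 and 991 of the 12341 genes, and DESeq2 called HMOX1 with arsenic. The median LFC of the 9 members at 24 h was 1.24 under arsenic, 0.268 under cadmium, and 0.982 under mercury, while the median over all genes was 0.00041, -0.00694, and -0.0211.

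**Figure D1:**
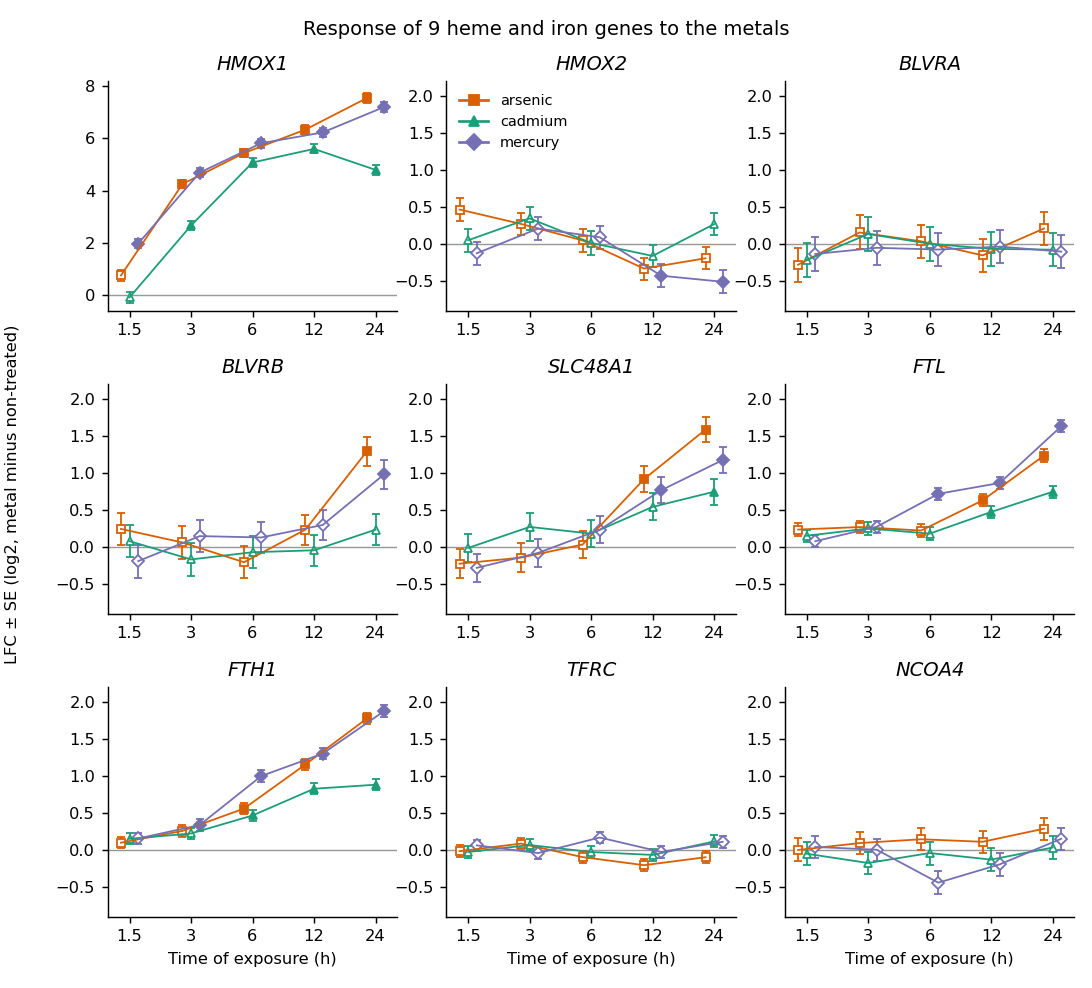
LFC against non-treated cells (log2, vertical axis, with the standard error as bars) of the 9 tested members over the time of exposure, a panel per gene. Filled symbols mark an adjusted p under 0.05 and open symbols all others. The HMOX1 panel has its own vertical scale, reaching 7.55 with arsenic, and the other panels share a scale, on which the LFC of FTH1 with mercury at 24 h, 1.88, is the highest.

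HMOX1, the inducible heme oxygenase (ENSG00000100292.18, chromosome 22, 35380361 to 35394214, plus strand, GRCh38), had the steepest response of the members. In non-treated libraries it lay between 10.3 and 34.7 CPM, with a median of 19.4 CPM over 15 libraries. At 1.5 h the mercury libraries were at 86.4, 73.6, and 85.4 CPM, against 19.4, 25.5, and 17.5 CPM in non-treated cells. The arsenic libraries were then at 40.5, 30.6, and 34.2 CPM, and the cadmium libraries at 15.7, 22.7, and 20.1 CPM. Mercury thus stood clear of every other group within this shortest exposure (LFC 1.97 ± 0.18 SE, adjusted p = 4.33e-13), while the arsenic libraries lay above the non-treated ones without overlap but did not pass the test (LFC 0.75 ± 0.20 SE, adjusted p = 0.11), and cadmium overlapped them (LFC -0.09 ± 0.21 SE, adjusted p = 0.939). The arsenic value at 1.5 h was sensitive to the processing: its adjusted p was 0.0294 with DESeq2 and 4.94e-05 with no filter on low counts.

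By 3 h HMOX1 had risen with all 3 metals. The arsenic libraries reached 387, 356, and 519.8 CPM, the cadmium libraries 149.6, 141, and 130.3 CPM, and the mercury libraries 529, 628, and 556 CPM, against 16.6, 21.6, and 28.1 CPM without metal. No metal library overlapped a non-treated one, and the cadmium libraries were the lowest of the metal-treated ones. The folds over non-treated cells were 19.0 for arsenic, 6.33 for cadmium, and 25.8 for mercury, with adjusted p-values of 1.74e-31, 2.86e-20, and 5.59e-34.

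At 6 h the levels were 1229 ± 33.6 CPM under arsenic, 958 ± 133 CPM under cadmium, and 1598 ± 206 CPM under mercury (SD, n = 3 each), against 28.2 ± 6.96 CPM in non-treated cells. At 12 h they were 1594 ± 97.7, 953 ± 75.5, and 1475 ± 268 CPM, against 19.6 ± 1.18 CPM. The LFC at 6 h was 5.44 under arsenic, 5.08 under cadmium, and 5.82 under mercury, and at 12 h 6.34, 5.60, and 6.23, all with adjusted p-values of 2.32e-36 or smaller. HMOX1 was by then among the most raised genes of the cell: at 6 h its LFC ranked 1, 3, and 4 among the 12341 genes with arsenic, cadmium, and mercury, and at 12 h 1, 5, and 3.

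At 24 h HMOX1 was again much lower with cadmium than with arsenic and mercury. The metals had already differed at 3 h, with means of 421 CPM under arsenic, 140 CPM under cadmium, and 571 CPM under mercury. The arsenic libraries were at 2353, 2621, and 2276 CPM and the mercury libraries at 1852, 2164, and 1700.0 CPM, whereas the cadmium libraries were at 324, 310.1, and 442 CPM. Non-treated libraries of that time were at 10.3, 15.7, and 13.0 CPM, the lowest of the 5 time points. Every cadmium library at 24 h thus lay far under every arsenic and mercury library, and still far above the non-treated cells. The folds over non-treated cells were 187 with arsenic (LFC 7.55 ± 0.18 SE), 27.7 with cadmium (LFC 4.79 ± 0.18 SE), and 148 with mercury (LFC 7.21 ± 0.18 SE), with adjusted p-values of 6.33e-44, 1.84e-33, and 7.11e-43. Among non-treated cells themselves, HMOX1 differed by an LFC of -0.70 between 24 and 1.5 h, which did not pass the test (adjusted p = 0.0748).

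**Figure D2:**
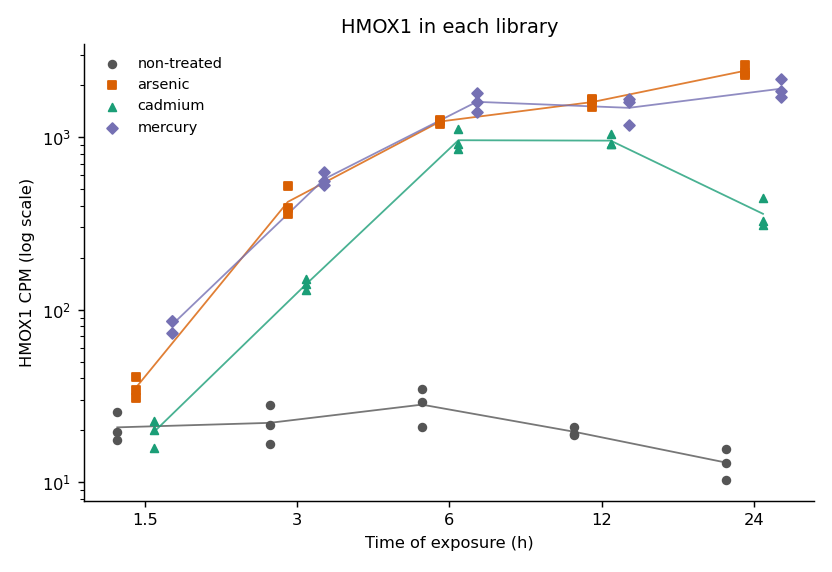
HMOX1 level in CPM (vertical axis, log scale) in each of the 60 libraries over the time of exposure; points are libraries and lines join the means of the 3 libraries of a group. Non-treated libraries stay between 10.3 and 34.7 CPM, the arsenic libraries end between 2276 and 2621 CPM at 24 h, and the cadmium libraries turn down to between 310.1 and 442 CPM.

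The metals were also tested directly against each other. Over the 9 tested members and 5 time points, 29 of 135 comparisons between metals were called, 9 of them for HMOX1 and 6 each for FTL and FTH1. For arsenic against cadmium 0, 1, 0, 2, and 6 members were called over the 5 time points, beside 0.00%, 0.138%, 1.18%, 5.77%, and 10.2% of all genes. For arsenic against mercury 2, 0, 4, 0, and 1 members were called, beside 1.56%, 1.89%, 4.48%, 6.84%, and 11.4%, and for cadmium against mercury 1, 1, 3, 3, and 5, beside 0.656%, 1.78%, 3.78%, 3.29%, and 20.0%. HMOX1 was lower with cadmium than with mercury at every time point, with LFCs of -2.06, -2.03, -0.74, -0.63, and -2.41 from 1.5 to 24 h and adjusted p-values of 0.000612 or smaller. Arsenic gave more HMOX1 reads than cadmium at 3 h (LFC 1.59), 12 h (LFC 0.74), and 24 h (LFC 2.75), with adjusted p-values of 1.02e-13, 1.88e-05, and 1.3e-26, and at 6 h the LFC of 0.36 did not pass the test (adjusted p = 0.211). Arsenic was under mercury at 1.5 h (LFC -1.22, adjusted p = 1.93e-07), and at 3, 6, and 24 h the LFCs of -0.44, -0.38, and 0.34 did not pass the test (adjusted p = 0.0564, 0.0653, and 0.0612). These comparisons of treated groups use no non-treated library. Between arsenic and cadmium edgeR called no member at 1.5 and 6 h. There 2 and 1 members had an unadjusted p under 0.05, beside 835 and 1147 of the 12341 genes. Between arsenic and mercury it called none at 3 and 12 h, where 1 and 3 members had such a p, beside 1448 and 2517 genes. Of these members, DESeq2 called FTL at 12 h.

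HMOX2, the constitutive heme oxygenase (ENSG00000103415.12, chromosome 16, 4474690 to 4510347, plus strand), lay between 31.5 and 69.3 CPM over all 60 libraries. Non-treated libraries had a range of 38.5 to 60.1 CPM with a median of 46.6 CPM. At 12 h of mercury the libraries were at 40.5, 40.8, and 48.3 CPM against 60.1, 55.0, and 59.7 CPM, and at 24 h at 31.8, 38.1, and 39.3 CPM against 56.4, 46.7, and 52.2 CPM. The groups did not overlap at either time, and HMOX2 was called lower with mercury at 12 h (LFC -0.43 ± 0.15 SE, adjusted p = 0.0427) and at 24 h (LFC -0.51 ± 0.15 SE, adjusted p = 0.00902). Both calls depended on single libraries: leaving out mercury replicate 1 gave an adjusted p of 0.147 at 12 h and 0.0718 at 24 h, and leaving out non-treated replicate 1 gave 0.129 and 0.0616. The 12 h call was also lost without any one of mercury replicate 2 or non-treated replicates 2 and 3 (adjusted p = 0.155, 0.0572, and 0.102). At 24 h HMOX2 was higher with cadmium than with mercury (62.6 ± 7.94 against 36.4 ± 4.05 CPM, SD, n = 3, LFC 0.78, adjusted p = 8.93e-05). Lesser differences between metals were called at 1.5 h, where arsenic was above mercury (LFC 0.59, adjusted p = 0.0222), and at 24 h, where arsenic was under cadmium (LFC -0.46, adjusted p = 0.0345) although those libraries overlapped. The former was lost without replicate 1 or 2 of either metal (adjusted p = 0.0519 to 0.153), and the latter without replicate 1 or 3 of either metal (adjusted p = 0.0538 to 0.337).

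The biliverdin reductases differed in behavior. BLVRA, the reductase of heme-derived biliverdin in adults (ENSG00000106605.11, chromosome 7, 43758680 to 43807342, plus strand), was called with no metal at any time by edgeR or DESeq2, and its LFCs ran from -0.28 to 0.21. Its non-treated libraries lay between 16.9 and 28.0 CPM, and all 60 libraries between 14.7 and 30.7 CPM. BLVRB, which acts on other biliverdin isomers and on flavins (ENSG00000090013.11, chromosome 19, 40447765 to 40465764, minus strand), rose late. At 24 h the arsenic libraries were at 66.6, 61.4, and 63.0 CPM and the mercury libraries at 46.3, 51.1, and 56.5 CPM, against 29.9, 18.1, and 29.4 CPM in non-treated cells. All of them lay above every non-treated library, while cadmium, at 27.0, 26.3, and 39.2 CPM, overlapped. The LFC was 1.29 ± 0.20 SE with arsenic (adjusted p = 6.44e-07), 0.98 ± 0.20 SE with mercury (adjusted p = 8.25e-05), and 0.23 ± 0.21 SE with cadmium (adjusted p = 0.712). Arsenic and mercury both exceeded cadmium in the direct test (LFC of arsenic minus cadmium 1.06, adjusted p = 4.67e-05, and of cadmium minus mercury -0.75, adjusted p = 0.00366). At 12 h and before, no LFC of BLVRB passed the test, the largest being 0.30 with mercury at 12 h (adjusted p = 0.364).

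SLC48A1, also called HRG1, moves heme out of endosomes and lysosomes into the cytosol (ENSG00000211584.14, chromosome 12, 47753916 to 47782751, plus strand). It lay between 27.2 and 42.5 CPM in non-treated libraries. At 12 h the arsenic libraries were at 54.6, 62.7, and 59.4 CPM, the cadmium libraries at 45.8, 49.0, and 41.4 CPM, and the mercury libraries at 41.3, 56.7, and 60.5 CPM, against 29.9, 36.7, and 27.2 CPM. No treated library of that time overlapped the non-treated ones, and arsenic (LFC 0.92 ± 0.17 SE, adjusted p = 0.00019) and mercury (LFC 0.77 ± 0.18 SE, adjusted p = 0.00115) were called, while cadmium lay at the threshold (LFC 0.54 ± 0.18 SE, adjusted p = 0.0504). At 24 h the arsenic libraries reached 98.3, 107, and 115 CPM and the mercury libraries 75.2, 78.7, and 86.9 CPM, against 42.5, 31.7, and 32.0 CPM. The increases were 3.00-fold with arsenic (LFC 1.59 ± 0.17 SE, adjusted p = 2.49e-11) and 2.26-fold with mercury (LFC 1.17 ± 0.17 SE, adjusted p = 1.04e-07).

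With cadmium, SLC48A1 at 24 h was at 51.6, 49.0, and 80.1 CPM. Replicate 3 stood well above the other two and was the one that correlated least with its own replicates in the whole series (median r 0.959). The call (LFC 0.75 ± 0.17 SE, adjusted p = 0.00599) was lost without it (LFC 0.51, adjusted p = 0.153), without non-treated replicate 2 (LFC 0.68, adjusted p = 0.0603), and in a fit of the 6 libraries alone (adjusted p = 0.163). Arsenic exceeded cadmium at 24 h (LFC 0.84, adjusted p = 0.000116), and for cadmium against mercury the LFC was -0.43 (adjusted p = 0.0556). Without cadmium replicate 3 the latter was -0.68 (adjusted p = 0.00448), and with all libraries it was called with RLE size factors, a stricter filter, and DESeq2 (adjusted p = 0.0482, 0.0443, and 0.0436).

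FTL, the ferritin light chain (ENSG00000087086.15, chromosome 19, 48965309 to 48966879, plus strand), and FTH1, the heavy chain with the ferroxidase site (ENSG00000167996.16, chromosome 11, 61959718 to 61967634, minus strand), had medians of 609 and 626 CPM over the 15 non-treated libraries. FTH1 was called at earlier times than FTL. At 6 h its arsenic libraries were at 904, 876, and 906 CPM, its cadmium libraries at 830.3, 866, and 821 CPM, and its mercury libraries at 1295, 1242, and 1103 CPM, against 616, 580.5, and 624 CPM. All 3 metals were clear of the non-treated cells, mercury the furthest, with LFCs of 0.56, 0.47, and 1.0 (adjusted p = 4.17e-07, 1.88e-05, and 8.52e-17). FTL was called at 6 h with mercury alone (LFC 0.72 ± 0.08 SE, adjusted p = 4.21e-10), its LFCs with arsenic and cadmium being 0.22 and 0.18 (adjusted p = 0.28 and 0.324).

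FTH1 was also called at 3 h with mercury, where the libraries were at 862, 703, and 801 CPM against 620.5, 639, and 611 CPM. These groups did not overlap, and the LFC was 0.34 ± 0.08 SE (adjusted p = 0.00459). Without mercury replicate 1 the adjusted p was 0.133, and without non-treated replicate 3 it was 0.0523.

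At 12 h both chains were called with every metal. FTH1 at that time was 1703 ± 44.4 CPM with arsenic, 1357 ± 73.4 CPM with cadmium, and 1884 ± 74.7 CPM with mercury, against 764 ± 27.0 CPM (SD, n = 3 each), with LFCs of 1.16, 0.83, and 1.30. FTL at 12 h was 1211 ± 63.4, 1087 ± 37.8, and 1425 ± 74.2 CPM, against 782 ± 39.7 CPM, with LFCs of 0.63, 0.47, and 0.87. The 6 differences had adjusted p-values of 2.18e-05 or smaller, and the heavy chain had the higher LFC with each metal.

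At 24 h FTH1 stood at 2381, 2191, and 2158 CPM with arsenic, 1204, 1302, and 1111 CPM with cadmium, and 2273, 2306, and 2630.1 CPM with mercury, against 649, 670.5, and 642 CPM. FTL stood at 1925, 1890.1, and 1780.0 CPM with arsenic, 1276, 1267, and 1443 CPM with cadmium, and 2265, 2506, and 2586 CPM with mercury, against 806, 823, and 746 CPM. Every treated library was above every non-treated one for both chains, and the cadmium libraries were the lowest of the treated. FTH1 rose 3.43-fold with arsenic, 1.84-fold with cadmium, and 3.68-fold with mercury (adjusted p = 8.06e-29, 2.03e-14, and 1.36e-30), and FTL rose 2.36-fold, 1.68-fold, and 3.10-fold (adjusted p = 1.49e-19, 2.09e-10, and 8.08e-26).

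Between the metals, mercury exceeded cadmium for both chains at 6, 12, and 24 h. The LFCs of cadmium minus mercury were -0.54, -0.39, and -0.88 for FTL and -0.53, -0.47, and -0.99 for FTH1, with adjusted p-values of 0.00121 or smaller. The FTL value at 12 h was lost without replicate 2 of every group (adjusted p = 0.11). Arsenic exceeded cadmium for FTH1 at 12 h (LFC 0.33, adjusted p = 0.00271, but 0.0856 without replicate 1 and 0.144 without replicate 2 of every group) and 24 h (LFC 0.90, adjusted p = 6.52e-15) and for FTL at 24 h (LFC 0.49, adjusted p = 6.65e-06). Arsenic lay under mercury for both chains at 6 h (LFC -0.50 for FTL and -0.44 for FTH1, adjusted p = 1.81e-05 and 4.39e-05), and at 24 h for FTL (LFC -0.39, adjusted p = 0.000311).

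**Figure D3:**
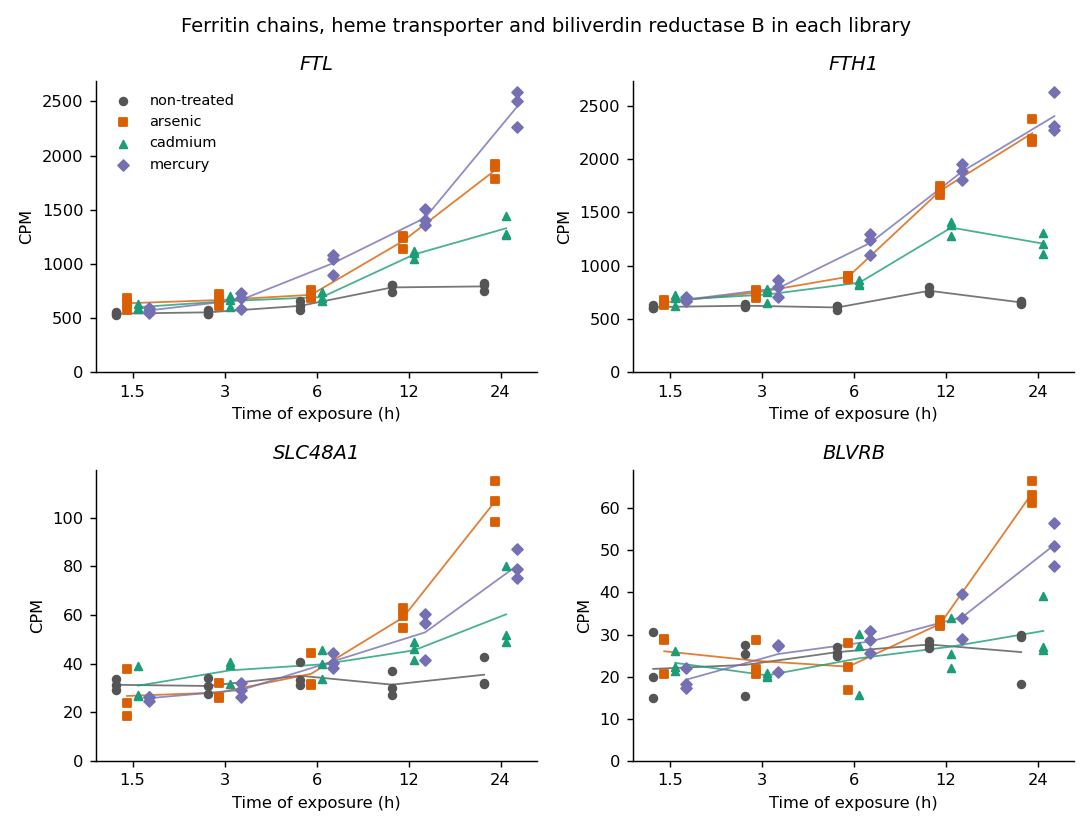
CPM (vertical axis, starting at 0) of FTL, FTH1, SLC48A1, and BLVRB in each library over the time of exposure; points are libraries and lines join group means. At 24 h the arsenic and mercury libraries lie above all non-treated libraries of that time in each panel, while the cadmium libraries of BLVRB, at 26.3 to 39.2 CPM, overlap the non-treated range of 18.1 to 29.9 CPM.

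The share of ferritin reads from the heavy chain was compared as well. FTH1 made up 49.8% ± 1.13 (SD, n = 3) of the FTH1 and FTL reads in non-treated cells at 6 h, and 55.7% ± 1.31 under arsenic, 54.8% ± 1.57 under cadmium, and 54.7% ± 1.08 under mercury. At 12 h the shares were 49.4% ± 1.30 without metal and 58.5% ± 1.28, 55.5% ± 0.49, and 56.9% ± 1.02 with arsenic, cadmium, and mercury. The treated and non-treated libraries did not overlap at 6 and 12 h with any metal. At 24 h the non-treated share was 45.2% ± 0.86, the arsenic share 54.6% ± 0.82, and the mercury share 49.5% ± 1.36, while cadmium, at 47.6% ± 3.69, overlapped. An exact two-sided permutation test of 3 libraries against 3 cannot go under 0.1, and it gave 0.1 for each of the 8 pairs of groups at 6 to 24 h other than cadmium at 24 h (0.4), and for mercury at 1.5 h, with 0.167 after adjustment over the 15 pairs. The differences also carry a change in non-treated cells, whose mean share was 53.1%, 53.0%, 49.8%, 49.4%, and 45.2% from 1.5 to 24 h. Under mercury the mean share was 54.4% at 1.5 h and 54.7% at 6 h.

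**Figure D4:**
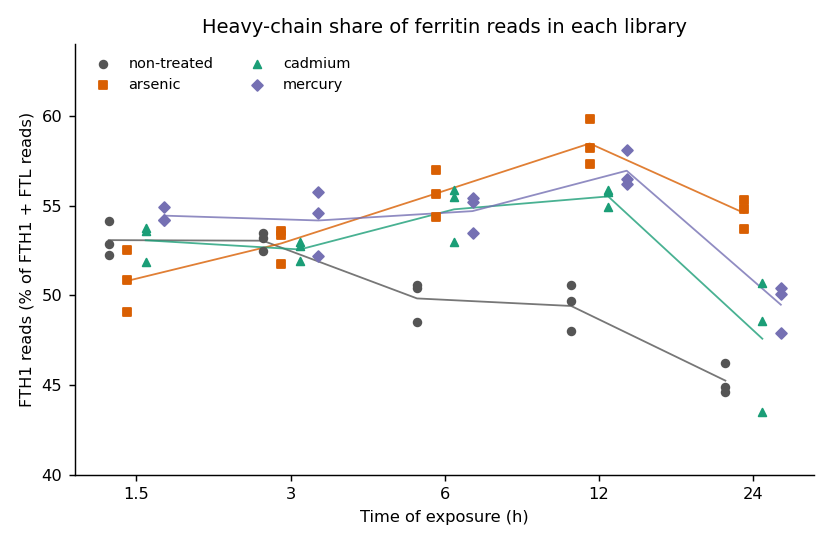
FTH1 reads as a percentage of all FTH1 and FTL reads (vertical axis, 40 to 64%) in each library over the time of exposure; points are libraries and lines join group means. The non-treated mean goes from 53.1% at 1.5 h to 45.2% at 24 h, while the arsenic mean reaches 58.5% at 12 h.

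Reads of the ferritin genes can be shared with their many processed copies. When the final 400 bases of the annotated FTH1 transcripts were split into overlapping runs of 50, 26.8% of these also occurred in transcripts of other genes (14 genes), against 7.41% for FTL, 2.56% for NCOA4, and 0% for the other 7 members. The 25 listed FTH1 pseudogenes together held 0.0938% to 0.854% as many reads as FTH1 in a library, and the 16 FTL pseudogenes 0% to 0.244% as many as FTL.

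Promoter sequences were at hand for 8 of the 10 members in the RefSeq table (GRCh38.p14), and those of the members that rose are shown for the 250 bases before the start site. HMOX1 and FTH1 had no entry. Matches are in capitals, from a search of both strands for the antioxidant response element core (TGACNNNGC), facing and outward pairs of the heat-shock unit (GAANNTTC and TTCNNGAA), the metal response element cores (TGCGCNC and TGCACNC), and the AP-1 site (TGACTCA), of which the first and the last can overlap in their shared TGAC. FTL is at chr19:48965059-48965308 on the plus strand, BLVRB at chr19:40465746-40465995 on the minus strand, and SLC48A1 at chr12:47772988-47773237 on the plus strand.
FTL: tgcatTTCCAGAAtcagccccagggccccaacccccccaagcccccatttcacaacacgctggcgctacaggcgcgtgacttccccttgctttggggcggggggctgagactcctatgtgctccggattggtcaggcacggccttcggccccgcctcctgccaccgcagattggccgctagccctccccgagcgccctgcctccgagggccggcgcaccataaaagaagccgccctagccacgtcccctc
BLVRB: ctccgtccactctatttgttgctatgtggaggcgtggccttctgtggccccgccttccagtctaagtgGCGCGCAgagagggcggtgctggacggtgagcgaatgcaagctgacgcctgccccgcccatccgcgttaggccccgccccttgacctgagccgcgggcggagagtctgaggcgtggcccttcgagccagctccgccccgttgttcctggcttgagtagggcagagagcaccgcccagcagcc
SLC48A1: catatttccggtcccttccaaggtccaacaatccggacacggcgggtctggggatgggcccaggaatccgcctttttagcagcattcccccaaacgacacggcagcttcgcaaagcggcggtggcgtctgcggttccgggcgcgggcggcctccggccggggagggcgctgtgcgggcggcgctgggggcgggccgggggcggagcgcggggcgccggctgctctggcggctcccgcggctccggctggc

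The FTL window held 1 match, to the outward heat-shock pair, which 6.62% of the 35116 windows searched hold. These are not all the windows of the table. BLVRB held 1 match on the opposite strand to the core TGCGCNC, held by 16.8% of windows, and SLC48A1 held none. The shares of windows with the other motifs were 10.9% for TGACNNNGC, 5.78% for GAANNTTC, 9.87% for TGCACNC, and 4.2% for TGACTCA. Windows of members that did not rise held matches too: TFRC 3 and SLC40A1 2, all to TGCGCNC, HMOX2 1 to the same core, BLVRA 1 to TGCACNC, and NCOA4 1 each to TTCNNGAA and TGCGCNC. These are descriptions of letters in a short window.

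TFRC, the transferrin receptor that takes up iron-loaded transferrin (ENSG00000072274.14, chromosome 3, 196012511 to 196082153, minus strand), was not called with any metal. Over all 15 comparisons with non-treated cells its LFC ran from -0.20 (arsenic at 12 h, adjusted p = 0.157) to 0.17 (mercury at 6 h, adjusted p = 0.204), with standard errors of 0.08, and none was called. At 24 h the libraries were between 239.8 and 267 CPM with arsenic, 292, 309, and 276 CPM with cadmium, and 297, 292, and 285 CPM with mercury, against 271, 240.4, and 297 CPM. All 3 metals overlapped the non-treated libraries there. In a direct comparison TFRC was lower with arsenic than with mercury at 6 h (LFC -0.26, adjusted p = 0.0369), a call that was lost without any one of arsenic replicates 1 to 3 or mercury replicates 1 and 2 (adjusted p = 0.0655 to 0.18). A fall with time alone was called in non-treated cells, from 336, 350.1, and 371 CPM at 1.5 h to 271, 240.4, and 297 CPM at 24 h (LFC -0.39 ± 0.08 SE, adjusted p = 0.00159), which was lost without replicate 2 of every group (adjusted p = 0.221).

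NCOA4, the ferritin receptor of the lysosomal route (ENSG00000266412.6, chromosome 10, 46005088 to 46030623, minus strand), was not called against non-treated cells at any time. Its lowest values were those of mercury at 6 h, 49.7, 40.4, and 49.6 CPM against 54.3, 72.0, and 62.9 CPM. These libraries did not overlap, and the LFC of -0.44 ± 0.16 SE did not pass the test (adjusted p = 0.0697). Against arsenic at 6 h, with 74.1, 66.3, and 69.6 CPM, the mercury level was lower (LFC of arsenic minus mercury 0.59, adjusted p = 0.0118), and this call was lost without mercury replicate 2 (adjusted p = 0.135) or arsenic replicate 1 (adjusted p = 0.0635).

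SLC40A1, which encodes ferroportin, the iron exporter (ENSG00000138449.11, chromosome 2, 189560590 to 189583758, minus strand), had 0 reads in all 60 libraries. A limit of 3 counts stands for a level of up to 1.35 CPM in the smallest library and 0.681 CPM in the largest. A transcript below that could go unseen in a single library. The limit for all 60 libraries together is lower and was not worked out.

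**Figure D5:**
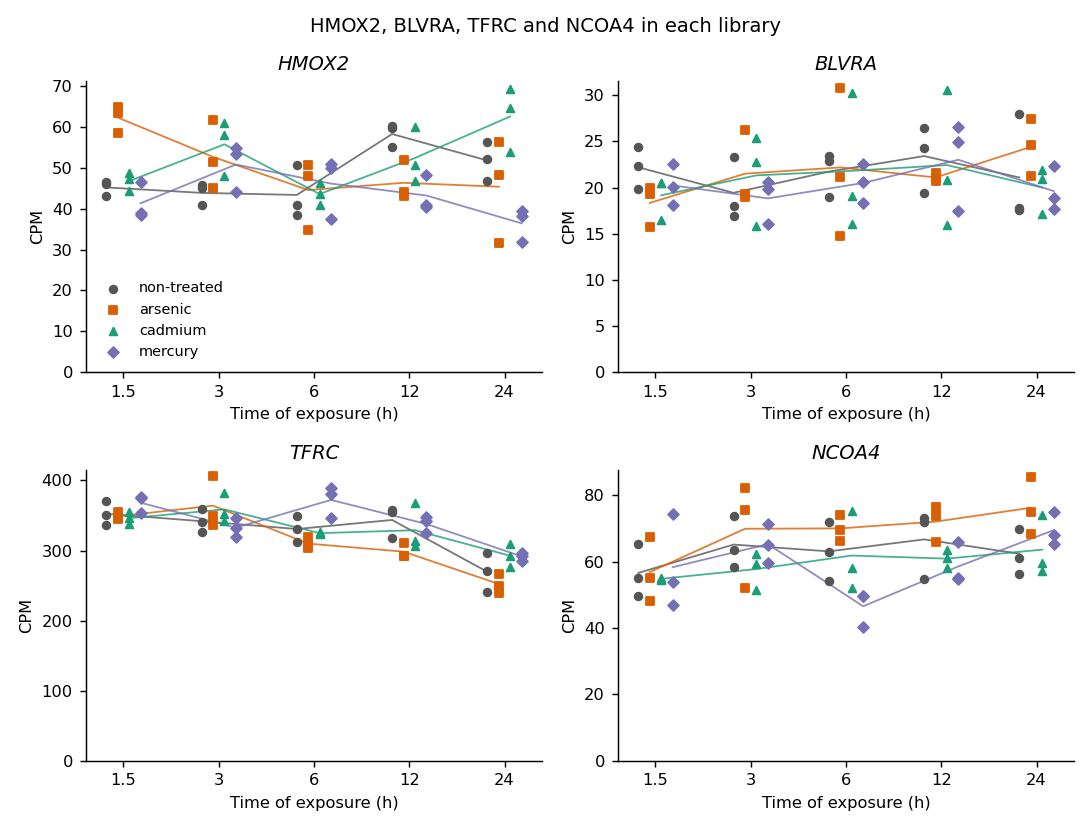
CPM (vertical axis, starting at 0) of HMOX2, BLVRA, TFRC, and NCOA4 in each library over the time of exposure; points are libraries and lines join group means. The metal-treated and non-treated libraries intermingle in the BLVRA panel, and in the HMOX2 panel the mercury libraries at 24 h, 31.8 to 39.3 CPM, lie under the non-treated ones.

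FTL, TFRC, and SLC40A1 carry iron-responsive elements, hairpins bound by the iron regulatory proteins, which block translation when they lie before the coding sequence and stabilise the transcript when they lie after it. They are shown because this control acts at the transcript itself, with the 6-base loop in capitals. The search required a bulged C, 5 paired bases (G with T allowed) around CAGTGN, where N is not G, in the GENCODE 44 transcripts, whose positions for all 10 members were those of the count table. Elements that depart from this pattern would be missed. The outcome of this search for HMOX1 and FTH1 is not reported here. The FTL element found is in the 5′ UTR at chr19:48965335-48965364, and that of SLC40A1 is in the 5′ UTR on the minus strand at chr2:189580660-189580689. The 4 TFRC elements found are in the 3′ UTR on the minus strand at chr3:196050978-196051007, chr3:196050574-196050603, chr3:196050509-196050538, and chr3:196050462-196050491.
FTL: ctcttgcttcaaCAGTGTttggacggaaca
TFRC a: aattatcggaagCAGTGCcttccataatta
TFRC b: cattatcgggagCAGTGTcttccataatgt
TFRC c: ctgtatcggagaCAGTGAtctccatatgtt
TFRC d: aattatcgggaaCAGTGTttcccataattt
SLC40A1: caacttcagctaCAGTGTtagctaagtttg

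The same pattern occurred in the 5′ UTR of 11 of 19701 canonical coding transcripts (0.0558%) and in the 3′ UTR of 97 (0.492%).

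The response of single members was also compared between neighboring times, each against its own non-treated cells. These steps were tested for all 9 members at every interval, and 15 were called. The HMOX1 response grew between 1.5 and 3 h with each metal, its LFC going up by 3.50 with arsenic, 2.76 with cadmium, and 2.72 with mercury (adjusted p = 6.52e-16, 4.53e-11, and 8.48e-12), where 0.0324%, 0.0729%, and 0.113% of all genes were called. Between 3 and 6 h it grew by 1.19, 2.41, and 1.13 (adjusted p = 0.0155, 1.44e-10, and 0.00777), where 0.0648%, 0.348%, and 0.324% were called. FTH1 with mercury was the only other member called in these intervals (0.66 between 3 and 6 h, adjusted p = 0.00026).

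Between 6 and 12 h no step of HMOX1 was called (0.308%, 0.324%, and 1.92% of all genes were), the largest being 0.90 with arsenic (adjusted p = 0.0783). Of the members, 1 was called with arsenic, FTH1 (0.60, adjusted p = 0.00114), and none with cadmium or mercury. With cadmium and mercury 3 members each had an unadjusted p under 0.05, beside 1188 and 1754 of the 12341 genes, and DESeq2 called FTH1. These FTH1 steps before 12 h are named after their values were seen. Between 12 and 24 h HMOX1 grew by 1.21 with arsenic (adjusted p = 0.00568) and 0.98 with mercury (adjusted p = 0.0483), and with cadmium the step was -0.80, which did not pass the test (adjusted p = 0.191). Over this last interval 4 members were called with arsenic, 0 with cadmium, and 3 with mercury, beside 1.57%, 0.381%, and 0.624% of all genes. With cadmium 3 members had an unadjusted p under 0.05, beside 1240 of the 12341 genes, and DESeq2 called none. Besides HMOX1, the members called were BLVRB with arsenic (1.06, adjusted p = 0.0344), FTL with arsenic and mercury (0.61 and 0.77, adjusted p = 0.00194 and 6.83e-05), and FTH1 with arsenic and mercury (0.62 and 0.57, adjusted p = 0.000572 and 0.00172). Of the 15 steps, 4 were called without replicate 1 of every group, 5 without replicate 2, and all 15 without replicate 3, when 2 FTL steps were called as well. The HMOX1 steps of all 3 metals between 1.5 and 3 h and that of cadmium between 3 and 6 h were called in each case.

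In non-treated cells, 0, 0, 2, and 2 members were called at 3, 6, 12, and 24 h against 1.5 h, beside 0.122%, 0.486%, 4.09%, and 3.29% of all genes. At 3 and 6 h 0 and 2 members had an unadjusted p under 0.05, beside 544 and 1433 of the 12341 genes. FTL was higher at 12 h (LFC 0.54, adjusted p = 1.43e-05) and 24 h (LFC 0.55, adjusted p = 5.86e-06), FTH1 was higher at 12 h (LFC 0.32, adjusted p = 0.00714, but 0.222 without replicate 1 and 0.143 without replicate 2 of every group), and TFRC was lower at 24 h, as given above.

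Other genes of heme and iron metabolism were followed as lists, whose counts at 24 h stand beside 14.3%, 2.19%, and 27.8% of all genes called with arsenic, cadmium, and mercury. Of 13 tested genes of heme synthesis, none was called with cadmium at any time, 4 were higher with arsenic at 24 h, and 3 were higher and 2 lower with mercury at 24 h. FECH, the ferrochelatase that inserts iron into heme, went from 9.71 to 21.2 CPM at 24 h of mercury (LFC 1.14, adjusted p = 0.000991). Of 9 genes of heme transport and binding, 1 was higher and 1 lower at 24 h of arsenic, 1 was lower with cadmium, and 3 were higher and 1 lower with mercury, none of them beyond an LFC of 1.

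Of 9 tested genes of iron uptake and transport, 2 were higher at 24 h with arsenic, 2 with mercury, and 0 with cadmium. CYBRD1, a plasma membrane ferric reductase, went from 29.1 to 66.1 CPM with arsenic (LFC 1.18, adjusted p = 2.76e-08) and to 52.3 CPM with mercury (LFC 0.84, adjusted p = 3.17e-05). STEAP1, a heme-binding membrane protein of the STEAP family, went from 18.1 to 30.8 CPM with arsenic (LFC 0.78, adjusted p = 0.0135) and to 40.5 CPM with mercury (LFC 1.17, adjusted p = 3.28e-05). Among 11 genes of iron storage and regulation, 1 was higher and 1 lower at 24 h of arsenic, and 3 were higher and 1 lower at 24 h of mercury. BMP6, the ligand that drives hepcidin expression in the liver, had a low level. It went from 3.11 ± 1.59 to 9.38 ± 3.33 CPM (SD, n = 3 each) at 24 h of mercury (LFC 1.56, adjusted p = 0.00187). Of 17 genes of iron-sulfur cluster assembly, 2 were higher at 24 h with arsenic, 1 with cadmium, and 3 with mercury, where 2 were lower. HSPA9, the mitochondrial HSP70 that also serves protein import, was raised from 290.5 CPM to 436 CPM with arsenic, 354 CPM with cadmium, and 599 CPM with mercury (LFC 0.59, 0.29, and 1.04, adjusted p = 1.03e-08, 0.026, and 2.23e-18).

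Of 10 tested transcripts of proteins that govern HMOX1 transcription, the numbers called higher from 1.5 to 24 h were 0, 0, 1, 2, and 4 with arsenic, 0, 0, 3, 4, and 1 with cadmium, and 1, 4, 5, 7, and 8 with mercury, and none was lower. The shares of all genes called at these times were 0.0729% to 14.3% with arsenic, 0.00% to 8.18% with cadmium, and 0.567% to 27.8% with mercury. MAFF, MAFG, and MAFK are small MAF proteins, which pair with NRF2 or with the repressor BACH1 on antioxidant response elements. At 24 h of mercury their LFCs were 1.99, 1.86, and 1.89, and that of BACH1 was 1.57, with adjusted p-values of 2.93e-06 or smaller. At 24 h of arsenic MAFG (LFC 1.17, adjusted p = 2.37e-10), BACH1 (LFC 1.18, adjusted p = 0.00107), and MAFK (LFC 0.67, adjusted p = 0.0104) were raised, while MAFF was not called (LFC 0.03, adjusted p = 0.939). With cadmium, MAFF and MAFK had LFCs of 1.63 and 1.54 at 12 h (adjusted p = 1.71e-09 and 2.96e-09). MAFG and BACH1 had LFCs of 0.82 and 0.80 there (adjusted p = 5.24e-06 and 0.044). At 24 h of cadmium MAFK alone of the list was called (LFC 0.97, adjusted p = 0.000486).

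The genes whose 20 group means of log2 CPM were most like those of HMOX1 were ENSG00000261327 (Pearson's r 0.964), GCLM (0.943), NMRAL2P (0.911), OSGIN1 (0.905), and SESN2 (0.903). GCLM encodes the modifier subunit of glutamate-cysteine ligase, which makes the precursor of glutathione, and SESN2 encodes a stress-inducible sestrin. At 24 h GCLM was at 125 CPM in non-treated cells, 484 CPM with arsenic, 189 CPM with cadmium, and 511 CPM with mercury. It shared with HMOX1 a low cadmium value beside high arsenic and mercury values at that time. GCLM was picked for its likeness to HMOX1 with the 24 h groups included, so this is not a separate result. Of the members, FTH1 came closest, with r = 0.811 (place 43 of 12340 genes), followed by FTL (0.685), SLC48A1 (0.658), and BLVRB (0.544), while TFRC (-0.282) and HMOX2 (-0.300) had negative values. The 20 means share the cell line, and groups of the same time share that time. No test was run on these correlations, which are descriptions.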

How the data were processed

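The study sequenced 60 libraries of 1321N1 cells with a strand-specific 3′ mRNA kit. The authors aligned the reads with STAR 2.7.9a to GRCh38, counted exon reads per GENCODE gene by strand, and deposited a table of raw counts per gene and library, which is not normalized. Groups were taken from the sample labels, and the members and gene lists were chosen with earlier results of these data known.

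All libraries were fitted together with edgeR 4.0.16 (R 4.3.3, limma 3.58.1), with a coefficient per group, TMM scaling factors (0.934 to 1.03), and quasi-likelihood tests. Genes were kept by filterByExpr (minimum count 10, minimum total 15), and p-values were adjusted by Benjamini-Hochberg within each comparison. CPM values are counts divided by the TMM-scaled library size, on the usual CPM scale. DESeq2 1.42.0, RLE size factors, other filters, a replicate block, fits of the compared libraries alone, and leaving out libraries were tried as alternatives. The test was tried on simulated data. The 92 spike-in rows held 0 counts and were left out. Limits of 3 counts cover counting error only.

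The labels number the replicates in each group. Deviations of same-numbered libraries from their group means had a median correlation of -0.00799 (-0.278 to 0.0837 over 45 pairs of libraries). Each pair was a metal-treated and a non-treated library of the same time, and the numbers were therefore not used to pair libraries. Named genes were all members, the genes of each pathway list with an adjusted p under 0.05 and an LFC beyond 1 with any metal and time (up to 4 a list, by size at 24 h), and the 5 genes most like HMOX1. Promoter windows are from RefSeq (GRCh38.p14), and transcripts from GENCODE 44, searched with Python 3.11.15.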

Additional observations from a re-analysis of the deposited data

Results flagged for a closer look

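The effect of a metal against non-treated cells differed between neighboring times, by an interaction term in edgeR's quasi-likelihood test with Benjamini-Hochberg adjustment, for 4 members in 15 instances. For HMOX1 the LFC at 3 h exceeded that at 1.5 h by 3.50, 2.76, and 2.72 under arsenic, cadmium, and mercury (adjusted p = 6.52e-16, 4.53e-11, and 8.48e-12). That at 6 h exceeded that at 3 h in the same order of metals by 1.19, 2.41, and 1.13 (adjusted p = 0.0155, 1.44e-10, and 0.00777). Between 12 and 24 h HMOX1 differed by 1.21 with arsenic (adjusted p = 0.00568) and 0.98 with mercury (adjusted p = 0.0483). The non-treated mean went from 19.6 to 13.0 CPM over the same interval, which enters both values.

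FTH1 differed by 0.66 with mercury between 3 and 6 h (adjusted p = 0.00026) and by 0.60 with arsenic between 6 and 12 h (adjusted p = 0.00114). The other instances were between 12 and 24 h. BLVRB differed by 1.06 with arsenic (adjusted p = 0.0344). FTL differed by 0.61 with arsenic (adjusted p = 0.00194) and 0.77 with mercury (adjusted p = 6.83e-05), and FTH1 by 0.62 with arsenic (adjusted p = 0.000572) and 0.57 with mercury (adjusted p = 0.00172).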

How the results depend on the processing

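No called value changed sign under any alternative tried, and of 1172 alternative values of called results 1098 kept their side of the threshold and 74 lost the call. Of 45 pairs of member and time, the count of calls against non-treated cells was 12 with arsenic (12 to 13 over the alternatives), 10 with cadmium (9 to 11), and 17 with mercury (14 to 18), and 29 of 135 direct comparisons of metals were called (24 to 33). The steps between times went from 15 calls to 4 without replicate 1 and 5 without replicate 2 of every group, with 17 without replicate 3 and 21 by DESeq2. The 4 calls over time in non-treated cells had a range of 2 to 5 when a replicate was left out, with 2 without replicate 2. The replicate block gave 12, 10, 17, 30, 15, and 4 calls in the same order and added 1 call, HMOX1 with arsenic against mercury at 3 h (LFC -0.44, adjusted p = 0.0461). With no filter on low counts, several uncalled HMOX1 differences were called, among them arsenic against cadmium at 1.5 h (adjusted p = 7.16e-07) and the step of cadmium from 12 to 24 h (LFC -0.80, adjusted p = 0.00811), and the cause was not tested. SLC48A1 with cadmium at 12 h (adjusted p = 0.0504) was called with RLE size factors, the stricter filter, DESeq2, and the 6 libraries alone (adjusted p = 0.0479, 0.0437, 0.0347, and 0.028). FTL with mercury at 3 h was called by DESeq2 (adjusted p = 0.0396, against 0.0835). DESeq2 also called the HMOX1 step of arsenic from 6 to 12 h (adjusted p = 0.0284, against 0.0783) and HMOX1 in non-treated cells at 24 h (adjusted p = 0.0314, against 0.0748). BLVRA, BLVRB, and HMOX1 had as few as 44, 40, and 40 reads in a library, and SLC40A1 could not be measured.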
